A study of Mus musculus with 28 samples.

Results

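The Cyp2c cytochromes P450 were followed in mouse liver as 10 genes, namely Cyp2c29, Cyp2c37, Cyp2c38, Cyp2c39, Cyp2c40, Cyp2c50, Cyp2c54, Cyp2c55, Cyp2c69 and Cyp2c70. They were taken by gene symbol from an expression table of 17792 rows, which holds 16 Cyp2c rows in all. Each of the 10 passed the filter on low values, at least 1 FPKM in at least 3 libraries, which left 11213 genes for testing. FPKM divides the fragments of a gene by transcript length and by library size. The 28 RNA sequencing libraries, made from whole liver of C57BL/6 mice, form 8 groups by genotype, agent and time. The wild-type (WT) mice and the mice labelled as a macrophage-specific Pparg knockout (KO) were gavaged either with 0.5% CMC, the vehicle, or with 625 mg/kg body weight of DEHP. Gavage lasted 28 days in 12 libraries, 3 per group, and 90 days in 16 libraries, 4 per group. DEHP is di(2-ethylhexyl) phthalate, a plasticizer. The animals are labelled as male, 20 to 30 g in weight and 12 to a group, and their age, the driver of the deletion and any pooling of animals are not given in the sources used here. No label says that replicates came from separate animals, so p-values measure the spread between these libraries.

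Cytochromes P450 are haem enzymes of the endoplasmic reticulum that add oxygen to their substrates with electrons passed on by P450 oxidoreductase and cytochrome b5. Members of the Cyp2c family are expressed mainly in hepatocytes, where they oxidise drugs and steroids and turn arachidonic and linoleic acid into epoxides and hydroxy acids, and Cyp2c70 makes the muricholic acids of mouse bile. Several members respond to the nuclear receptors CAR (Nr1i3) and PXR (Nr1i2), and some differ between male and female mouse liver under control of growth hormone. DEHP is hydrolysed to a monoester that activates the fatty acid receptor PPARalpha in rodent liver.

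The libraries carried features beyond their labels that bear on the Cyp2c values. Albumin (Alb) stood between 14340 and 42760 FPKM in the 28 libraries, so the tissue label matched its main marker. Xist, which is transcribed from the inactive X chromosome, was listed at 26.7 to 41.0 FPKM in the 12 libraries of 28 days and at no more than 0.02 FPKM in the 16 libraries of 90 days. Ddx3y, on the Y chromosome, was listed at 0 in all 12 libraries of 28 days and at 6.27 to 13.0 FPKM in those of 90 days. The label male is thus contradicted at 28 days, and time and these sex-chromosome transcripts cannot be told apart. Lyz2, a macrophage gene, stood at 38.5 to 120 FPKM in the wild-type and 0.73 to 2.67 FPKM in the knockout libraries. Pparg itself overlapped between the genotypes, at 1.51 to 7.65 FPKM over all libraries. Read totals were not in the table, and the spacing of low values in 2290 genes with 1 listed transcript gave an approximate depth at which 1 FPKM of a transcript of 1 kb rests on 8.05 to 12.75 fragments, depending on the library. At 90 days, 5 libraries carried transcripts of exocrine pancreas, with 8846 to 38521 FPKM summed over 15 markers against 9.95 to 53.4 FPKM in the other 23. They were replicate 4 of both wild-type groups and replicates 1, 2 and 3 of the knockout DEHP group. The summed level of 15 sinusoidal endothelial markers was low in 3 libraries, namely wild-type CMC replicate 7 and wild-type DEHP replicate 5 at 28 days and knockout DEHP replicate 4 at 90 days.

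All 10 genes lie on chromosome 19 in 1 cluster, and RefSeq places them between base 39006940 and base 40187286 of the mm10 or GRCm38 assembly. Ordered by the lower end of each RefSeq span, Cyp2c55 opens the cluster and Cyp2c29, Cyp2c39 and Cyp2c38 follow. Cyp2c40 and Cyp2c69 stand in the middle next to Cyp2c67 and Cyp2c68, and Cyp2c37, Cyp2c54, Cyp2c50 and Cyp2c70 close the cluster. Cyp2c44, another family member, is apart at 44005022 to 44029256 on the same chromosome. The span RefSeq gives for Cyp2c39, 39347346 to 39569568, covers that of Cyp2c38, 39389556 to 39463103, and these genes are on opposite strands. The Cyp2c39 promoter searched below ends at base 39510821, 40 bases from the GENCODE start and beyond the end of Cyp2c38. The overlap and the order of these genes thus rest on the wider span. The sources used here do not say whether the counting used strand.

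Several members are near copies of each other, so a fragment can match more than 1 of them. Coding sequences of Cyp2c37 and Cyp2c50 were identical at 96.1% of positions, those of Cyp2c54 and Cyp2c50 at 95.2%, those of Cyp2c39 and Cyp2c38 at 94.2% and those of Cyp2c40 and Cyp2c69 at 92.4%. Of all stretches of 50 bases in the Cyp2c40 transcript, 72.1% recurred letter for letter in another Cyp2c transcript. The share was 54.8% for Cyp2c69, 30.7% for Cyp2c50, 30.1% for Cyp2c37 and 25.7% for Cyp2c54. It was 11.4% for Cyp2c39, 7.45% for Cyp2c38, 2.08% for Cyp2c29, 0.514% for Cyp2c55 and 0 for Cyp2c70. With stretches of 100 bases, Cyp2c40 still shared 44.1% and Cyp2c69 36.3%, while Cyp2c29, Cyp2c38, Cyp2c39, Cyp2c55 and Cyp2c70 shared none. The sources used here do not say how the authors' counting divided such fragments, so the values of Cyp2c40 and Cyp2c69, and to a lesser degree of Cyp2c37, Cyp2c50 and Cyp2c54, are uncertain. The table also counted 7 unannotated transcripts in Cyp2c40, 3 in Cyp2c38 and 1 each in Cyp2c50 and Cyp2c54.

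**Figure D1:**
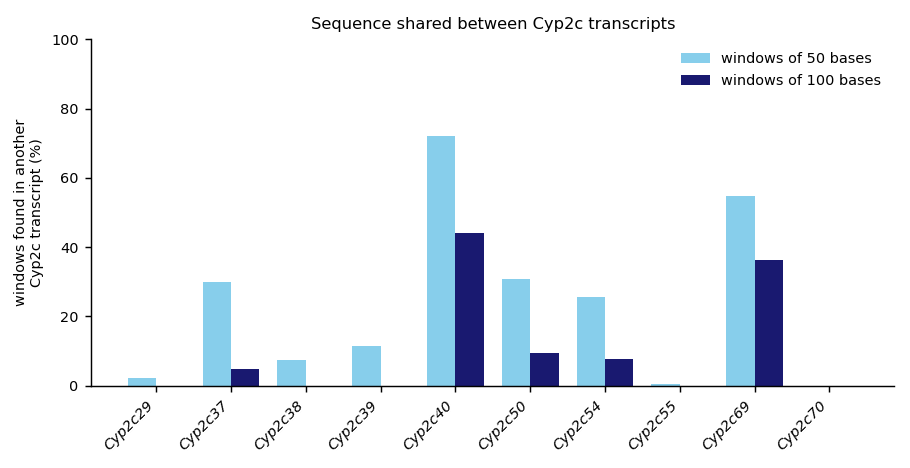
The height of each bar is the percentage of all 50-base (light) or 100-base (dark) windows of a member's GENCODE transcript that recur letter for letter in another Cyp2c transcript. Cyp2c40 and Cyp2c69 share most, at 72.1% and 54.8% of 50-base windows, and Cyp2c70 shares none.

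Promoters are shown because 6 of the members fell together with DEHP at 28 days and 5 of those 6 have a promoter in the RefSeq table, which matched 9 of the 10 members. Each line gives the 150 bases upstream of the RefSeq start on GRCm38.p6, and capitals mark the letters TGNACTTTG, here on the opposite strand as CAAAGTNCA, and TATAAA, on the opposite strand TTTATA. TGNACTTTG is the core of sites bound by HNF4, and TATAAA is the TATA box. The 5 that fell are Cyp2c37 (chr19:39992274-39992423, plus strand), Cyp2c50 (chr19:40089529-40089678, plus strand), Cyp2c40 (chr19:39812815-39812964, minus strand), Cyp2c69 (chr19:39886770-39886919, minus strand) and Cyp2c70 (chr19:40187287-40187436, minus strand). The 2 others are Cyp2c29 (chr19:39286935-39287084, plus strand) and Cyp2c55 (chr19:39006869-39007018, plus strand). Cyp2c38 and Cyp2c39, which did not pass at 28 days, were searched but are not printed.
Cyp2c37: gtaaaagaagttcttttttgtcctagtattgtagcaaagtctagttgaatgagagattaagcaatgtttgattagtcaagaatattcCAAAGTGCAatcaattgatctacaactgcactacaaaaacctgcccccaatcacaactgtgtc
Cyp2c50: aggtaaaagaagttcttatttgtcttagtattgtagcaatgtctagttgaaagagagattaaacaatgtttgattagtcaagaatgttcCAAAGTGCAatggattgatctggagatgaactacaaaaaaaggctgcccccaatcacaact
Cyp2c40: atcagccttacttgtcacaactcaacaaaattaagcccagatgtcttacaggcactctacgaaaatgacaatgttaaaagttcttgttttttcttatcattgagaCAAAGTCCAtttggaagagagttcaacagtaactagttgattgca
Cyp2c69: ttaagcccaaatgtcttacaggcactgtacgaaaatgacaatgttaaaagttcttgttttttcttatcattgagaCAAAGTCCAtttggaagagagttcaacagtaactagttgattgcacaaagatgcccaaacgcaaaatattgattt
Cyp2c70: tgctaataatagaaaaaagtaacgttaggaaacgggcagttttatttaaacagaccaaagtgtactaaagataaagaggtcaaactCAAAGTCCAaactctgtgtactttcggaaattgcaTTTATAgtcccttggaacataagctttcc
Cyp2c29: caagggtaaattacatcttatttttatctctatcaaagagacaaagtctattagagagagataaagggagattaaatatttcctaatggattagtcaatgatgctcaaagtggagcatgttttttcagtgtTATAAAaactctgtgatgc
Cyp2c55: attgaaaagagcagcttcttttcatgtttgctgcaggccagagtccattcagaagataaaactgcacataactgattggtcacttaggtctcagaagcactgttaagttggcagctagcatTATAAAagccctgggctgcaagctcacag

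Letters were searched on both strands of the 250 bases upstream of each start. TGNACTTTG was found in 5 of the 9 members with a promoter, Cyp2c37 at -63, Cyp2c50 at -61, Cyp2c40 at -45, Cyp2c69 at -75 and Cyp2c70 at -64, counted from the base before the start. Of 27025 mouse promoters of the same length, 1.21% held it on either strand. The promoters of Cyp2c40 and Cyp2c69 were identical at 86.8% of positions, and those of Cyp2c37 and Cyp2c50 at 86.0%, so the 5 matches are not independent of each other. The members without a match were Cyp2c29, Cyp2c38, Cyp2c39 and Cyp2c55, but the search took exact letters only. Cyp2c29 and Cyp2c39 hold CAAAGTCTA and Cyp2c38 holds CAAAGTTTA, with T where CAAAGTNCA has C. Cyp2c37 holds CAAAGTCTA as well, beside its match. Such near matches were not counted over all promoters, so the search does not show that these members lack a site. TATAAA was present in Cyp2c29, Cyp2c38, Cyp2c55 and Cyp2c70, against 13% of all promoters. The Cyp2c39 sequence ends in ATTGCTAT, where Cyp2c38 reads ATTGCTATAAA, so the search could not see whether Cyp2c39 has the box there. AGGTCA, the half-site of many nuclear receptors, was present in Cyp2c29 and Cyp2c70, against 13.8% of all promoters, and its matches overlapped none of the others. TTCNNNGAA, the letters bound by the growth hormone signal transducer STAT5, was in none of the 9 and in 7.18% of all promoters. GTTAAT, a half-site of HNF1, was in Cyp2c40 and Cyp2c69 and in 6.52% of all, and TGTTTAC, bound by FOXA factors, in Cyp2c38 and Cyp2c39 and in 3.09% of all. TTGCGCAA and TTATTGATT, letters bound by C/EBP factors and HNF6, were in none of the 9 and in 0.17% and 0.259% of all. The RefSeq start of Cyp2c29 is 17680 bases away from the outer edge of its GENCODE gene, and the start of the transcript used was not compared. For Cyp2c70, Cyp2c39, Cyp2c69 and Cyp2c50 that distance is 47, 40, 30 and 9 bases, so the positions above depend on the start used.

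By group mean, the family was led in vehicle livers at 28 days by Cyp2c69, a gene known as female-biased in mouse liver. Its FPKM was 606, 993 and 877 in the 3 wild-type CMC libraries and 897, 769 and 345 in the 3 knockout CMC libraries. In the last of these, knockout replicate 7, Cyp2c69 stood below Cyp2c29, Cyp2c50 and Cyp2c40. Cyp2c29, Cyp2c50, Cyp2c40, Cyp2c37 and Cyp2c70 came next, with wild-type means between 357 and 501 FPKM. Cyp2c54 stood at 198 ± 17.3 FPKM (SD, n = 3), Cyp2c38 at 33.7 ± 6.78, Cyp2c39 at 4.65 ± 0.604 and Cyp2c55 at 2.20 ± 1.28. FPKM is a value per length, so these levels can be set beside each other within the limits that shared sequence puts on them.

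At 28 days DEHP lowered most of the family and raised Cyp2c55. In wild-type livers 6 of the 10 members fell, 1 rose and 3 did not pass the test, and in knockout livers 6 fell, 2 rose and 2 did not pass. Among all genes tested, 16.5% passed in the wild type, with 10.3% higher and 6.17% lower, and 20.4% passed in the knockout, with 11.6% higher and 8.77% lower. The median log2 difference of the 10 members was -1.31 in the wild type and -0.97 in the knockout, against -0.01 and -0.04 over all genes. A gene passed at an adjusted p below 0.05 in limma's moderated test on log2(FPKM + 1), adjusted by Benjamini-Hochberg over the 11213 genes, and all log2 differences are on that scale, which understates changes of low genes. Where groups are said not to overlap at 28 days, DEHP libraries all stood above the CMC libraries for 15.4% of the genes tested and all below for 11.0% in the wild type, and for 19.2% and 22.5% in the knockout. In these whole-tissue libraries fewer cells of a type and less RNA per cell cannot be told apart.

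**Figure D2:**
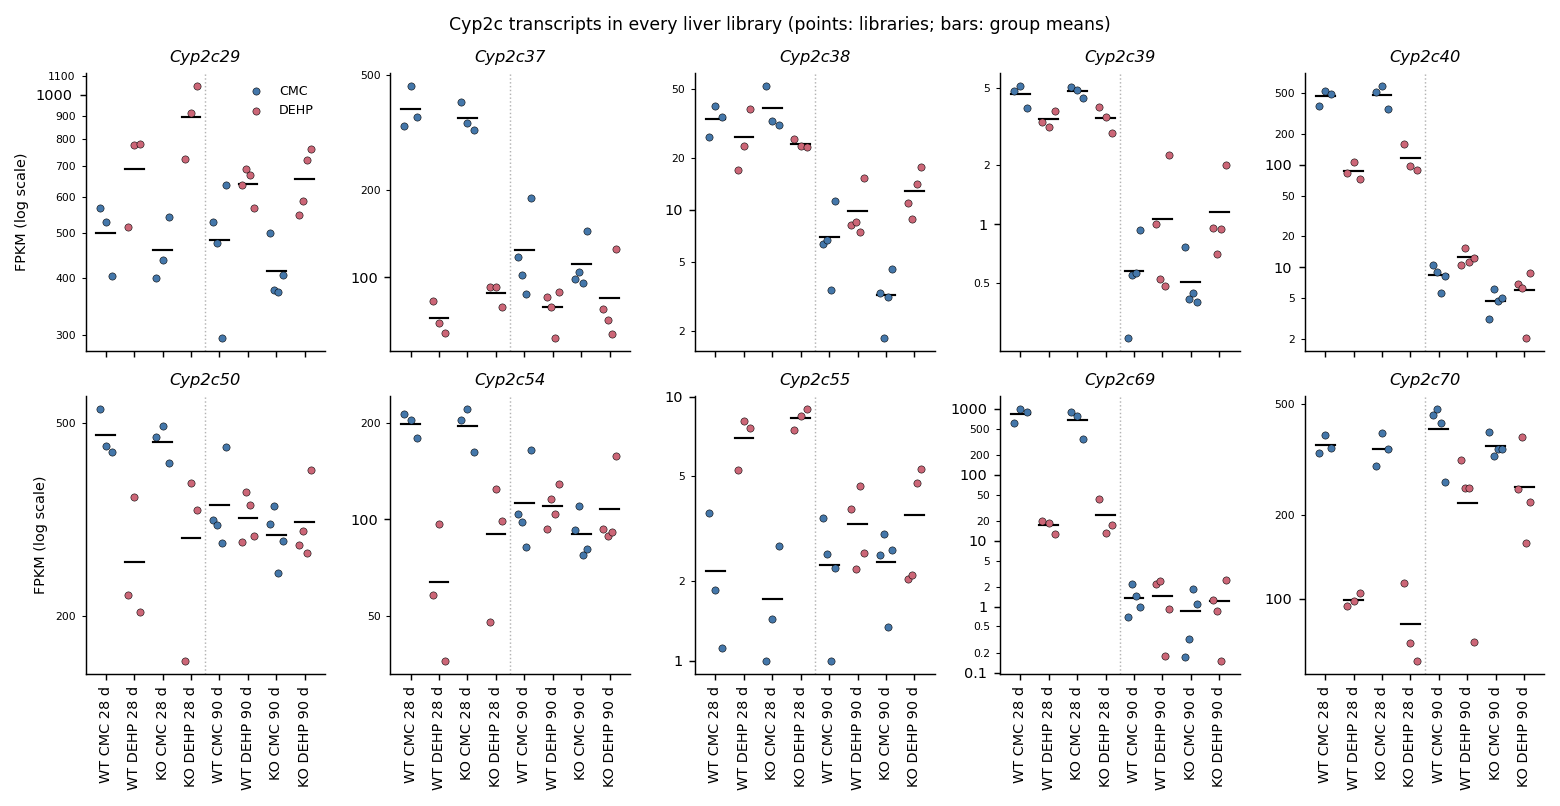
Each panel shows 1 gene, with FPKM on a logarithmic vertical axis, 1 point per library (blue CMC, red DEHP) and a bar at the mean of each of the 8 groups. At 28 days the red points of Cyp2c37, Cyp2c40, Cyp2c69 and Cyp2c70 lie below all blue points of the same genotype, and to the right of the dotted line, at 90 days, Cyp2c40 and Cyp2c69 are low in every group.

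Cyp2c69 showed the steepest decrease among the members. Against the vehicle values above, its FPKM after DEHP was 19.9, 18.6 and 12.7 in wild-type livers and 42.1, 13.1 and 17.2 in knockout livers. The highest DEHP library was thus below the lowest CMC library in both genotypes. The CMC mean was 48.3-fold the DEHP mean in the wild type (log2 difference -5.51, SE 0.46, adjusted p = 5.0e-09) and 27.8-fold the DEHP mean in the knockout (-4.80, SE 0.46, adjusted p = 3.4e-08). Cyp2c40, which shares much of its sequence with Cyp2c69 and hydroxylates arachidonic acid, had 373, 528 and 490 FPKM in wild-type CMC and 83.5, 106 and 72.6 FPKM in wild-type DEHP livers. In the knockout it had 511, 588 and 349 FPKM with CMC and 160, 97.6 and 88.7 FPKM with DEHP. The groups did not overlap in either genotype, and the log2 differences were -2.40 (SE 0.31, adjusted p = 4.2e-06) and -2.07 (SE 0.31, adjusted p = 2.2e-05).

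The arachidonic acid epoxygenases Cyp2c37, Cyp2c50 and Cyp2c54, which lie side by side, fell to different degrees. Cyp2c37 had 332, 460 and 357 FPKM in wild-type CMC livers and 82.6, 69.4 and 64.1 FPKM after DEHP. In the knockout its values were 404, 342 and 323 FPKM with CMC and 92.7, 92.3 and 78.9 FPKM with DEHP. All DEHP libraries stood below all CMC libraries, with log2 differences of -2.39 (SE 0.23, adjusted p = 6.0e-08) and -2.0 (SE 0.23, adjusted p = 5.6e-07). Cyp2c54 went from 213, 204 and 179 FPKM to 58.2, 97.1 and 36.2 FPKM in the wild type, and from 204, 221 and 163 FPKM to 47.8, 124 and 98.8 FPKM in the knockout. The DEHP groups were wide but did not reach the CMC groups, and the log2 differences were -1.73 (SE 0.31, adjusted p = 2.4e-04) and -1.20 (SE 0.31, adjusted p = 0.00621). Without knockout DEHP replicate 5, the lowest library of its group, the latter became -0.80 (adjusted p = 0.0735).

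Cyp2c50 moved least among the members that fell. It had 534, 448 and 434 FPKM with CMC and 221, 352 and 204 FPKM with DEHP in the wild type. In the knockout the values were 467, 491 and 413 FPKM with CMC and 162, 376 and 330 FPKM with DEHP. The groups did not overlap, and the log2 differences were -0.90 (SE 0.24, adjusted p = 0.00903) and -0.74 (SE 0.24, adjusted p = 0.0267). The wild-type call was lost without DEHP replicate 7 (-0.75, adjusted p = 0.0616) and without the libraries low in endothelial markers (-0.87, adjusted p = 0.0505). The knockout call was lost without CMC replicate 5 (adjusted p = 0.0694) or replicate 6 (adjusted p = 0.0902), and without DEHP replicate 5 the difference was -0.37 (adjusted p = 0.252). Both calls were also lost in a fit of the groups compared alone (adjusted p = 0.0542 and 0.13) and in a fit of the 28-day libraries alone (adjusted p = 0.0618 and 0.106).

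Cyp2c70, the muricholic acid enzyme, shares no 50-base stretch with its relatives. Its FPKM was 333, 389 and 348 in wild-type CMC livers and 94.1, 98.6 and 105 after DEHP. In the knockout it was 301, 392 and 344 with CMC and 114, 69.3 and 59.9 with DEHP. The agents did not overlap in either genotype, and the log2 differences were -1.84 (SE 0.37, adjusted p = 7.5e-04) and -2.13 (SE 0.37, adjusted p = 1.1e-04).

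Cyp2c55, a low member that is also expressed in the intestine, was the member that rose in both genotypes at 28 days. Its values were 3.62, 1.86 and 1.12 FPKM in wild-type CMC and 5.29, 8.08 and 7.61 FPKM in wild-type DEHP livers. In the knockout it had 1.00, 1.44 and 2.73 FPKM with CMC and 7.51, 8.45 and 9.0 FPKM with DEHP. The DEHP libraries lay above all CMC libraries, and the log2 differences were 1.38 (SE 0.32, adjusted p = 0.00359) and 1.82 (SE 0.32, adjusted p = 1.6e-04). Of 8 intestinal markers in the table, whose sum was 162 to 187 FPKM with CMC and 169 to 195 FPKM with DEHP in the wild type and 166 to 186 and 128 to 158 FPKM in the knockout, the most abundant were Fabp2, which rose, and Apoa4, which fell. Vil1 and Lct, singled out after their values were seen, did not exceed 0.25 and 0.05 FPKM in any library. Krt20 of the same list was at 0 in 21 libraries, and its 28-day medians were 0 with CMC in both genotypes and 0.46 and 0.26 FPKM with DEHP in the wild type and the knockout. The part of these transcripts in the Cyp2c55 difference was not tested.

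Cyp2c29, an epoxygenase that phenobarbital induces through CAR, had 568, 529 and 404 FPKM in wild-type CMC and 516, 777 and 780 FPKM in wild-type DEHP livers. These groups overlapped, and the difference of 0.45 did not pass (SE 0.22, 95% interval 0.01 to 0.90, adjusted p = 0.173), although it did with library weights (0.52, adjusted p = 0.0302). In the knockout all 3 DEHP libraries, at 724, 914 and 1046 FPKM, stood above the CMC libraries at 399, 437 and 542 FPKM. Cyp2c29 rose there by 0.96 (SE 0.22, adjusted p = 0.00204). The genotypes were not shown to differ in this response, since the interaction was 0.50 (SE 0.31, adjusted p = 1).

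Cyp2c38 and Cyp2c39, near copies that epoxidise arachidonic acid and, in the case of Cyp2c39, hydroxylate retinoic acid, did not pass the test at 28 days. Cyp2c38 had group means of 33.7 FPKM with CMC and 26.2 FPKM with DEHP in the wild type, and of 38.6 and 24.1 FPKM, in that order, in the knockout. Its log2 differences were -0.41 (95% interval -1.08 to 0.27) and -0.62 (-1.29 to 0.06). The wild-type groups overlapped. In the knockout all DEHP libraries of Cyp2c38, at 23.15 to 25.78 FPKM, lay below the CMC libraries, at 30.87 to 52.06 FPKM. Cyp2c39 stood between 3.97 and 5.13 FPKM in the CMC libraries and between 2.95 and 3.99 FPKM in the DEHP libraries. Its log2 differences were -0.34 (95% interval -0.80 to 0.12) and -0.38 (-0.83 to 0.08), and within each genotype all DEHP libraries lay below all CMC libraries.

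**Figure D3:**
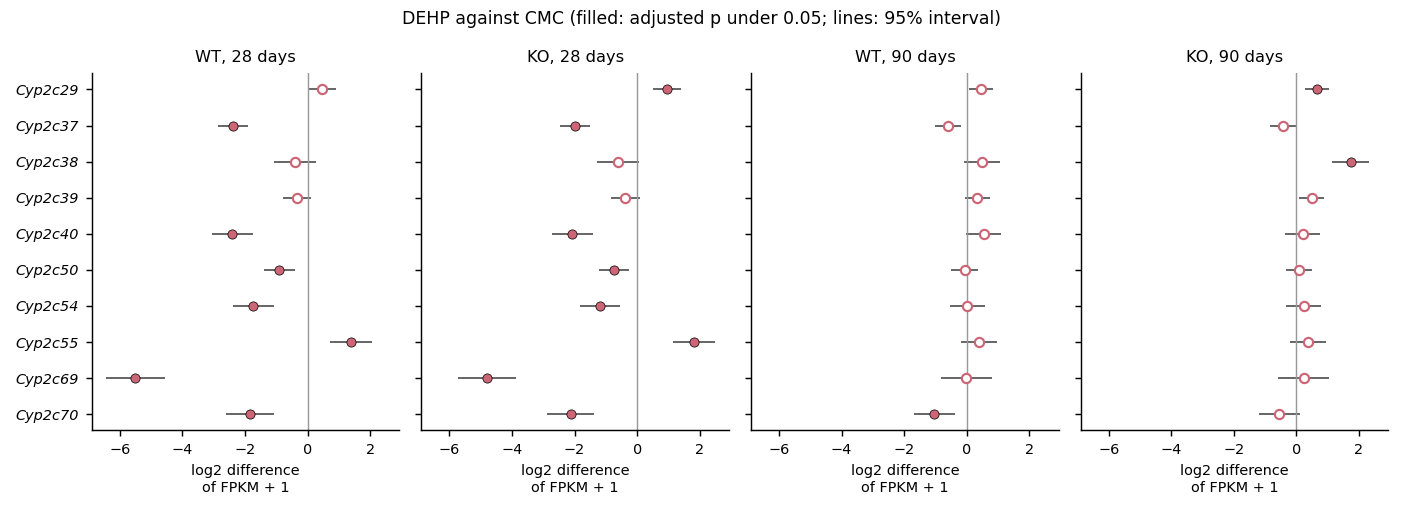
Points give the log2 difference of FPKM + 1 between DEHP and CMC for each member in the 4 combinations of genotype and time, horizontal lines the 95% interval, and filled points an adjusted p below 0.05. At 28 days Cyp2c69 stands farthest left at -5.51 and -4.80, and at 90 days 3 points are filled.

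The make-up of the family changed with these shifts. In wild-type CMC livers at 28 days the 10 members summed to 3240 ± 315 FPKM (SD, n = 3), of which Cyp2c69 took 25.3%, Cyp2c29 15.5%, Cyp2c50 14.7% and Cyp2c40 14.3%. After DEHP the sum was 1326 ± 226 FPKM, with 51.9% from Cyp2c29, 19.4% from Cyp2c50 and 1.32% from Cyp2c69. In the knockout the sum was 3012 ± 431 FPKM with CMC and 1619 ± 208 FPKM with DEHP, and Cyp2c29 went from 15.7% to 55.1% of it. Cyp2c29 was therefore the leading member in all 6 DEHP libraries of 28 days, with at least 46.9% of the sum in each.

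**Figure D4:**
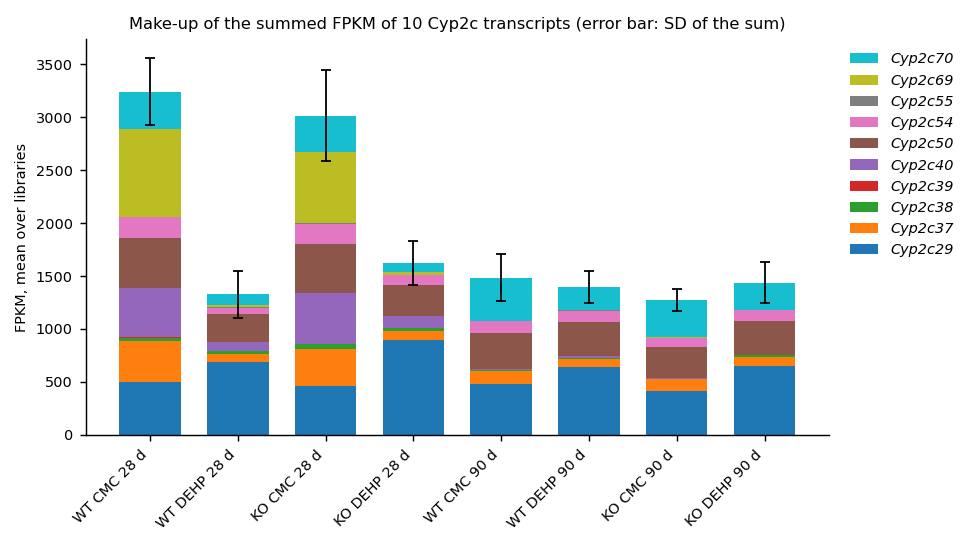
Stacked bars give the mean FPKM of each member in the 8 groups, and the error bar gives the SD of the libraries' sums. The sum is 3240 and 3012 FPKM in the CMC groups of 28 days and from 1273 to 1619 FPKM in the 6 other groups, where Cyp2c29 (dark blue) is the largest component by mean.

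At 90 days few members responded to DEHP. In the wild type 1 of the 10 passed, as lower, against 6.8% of all genes tested in either direction and 1.84% as lower. In the knockout 2 passed, both as higher, against 5.65% in either direction and 4.47% as higher. The median log2 difference of the members was 0.17 in the wild type and 0.23 in the knockout. Cyp2c70 had 455, 480, 428 and 262 FPKM in wild-type CMC livers and 316, 249, 249 and 69.9 FPKM after DEHP. The groups overlapped through replicate 4, which was the lowest library of both groups and carried pancreas transcripts in both. The log2 difference was -1.03 (SE 0.32, adjusted p = 0.0495). It became -0.55 (adjusted p = 0.219) without DEHP replicate 4 and -0.75 (adjusted p = 0.0127) without the 5 pancreas libraries. The call was also lost without CMC replicate 1, 2 or 3 (adjusted p = 0.121, 0.144 and 0.108) and without DEHP replicate 3 (adjusted p = 0.0544). In the knockout Cyp2c70 had 396, 326, 344 and 343 FPKM with CMC and 248, 380, 159 and 223 FPKM with DEHP. There the difference of -0.55 did not pass (95% interval -1.20 to 0.11).

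Cyp2c37 had 117, 102, 87.5 and 188 FPKM in wild-type CMC livers at 90 days and 85.1, 79.0, 61.6 and 89.0 FPKM after DEHP. In each of the 4 replicate numbers the DEHP value was the lower one, although the groups overlapped slightly. The difference of -0.60 did not pass (SE 0.20, adjusted p = 0.075). The replicate number was also tried as a block, although in these 2 groups only the replicate 4 libraries correlated best with their own number. With that block, Cyp2c37 passed at an adjusted p of 0.00287 and Cyp2c70 at 0.028, so that 2 members were called lower. That block was fitted over all groups, and in a blocked fit of these 2 groups alone Cyp2c37 did not pass (adjusted p = 0.0616). Without CMC replicate 3 Cyp2c37 also passed (-0.74, adjusted p = 0.0402). In the knockout, Cyp2c37 had 98.6, 104, 95.7 and 144 FPKM with CMC and 77.9, 71.2, 63.8 and 125 FPKM with DEHP, a difference of -0.42 (adjusted p = 0.278). The sign of that difference turned without the pancreas libraries, at 0.19, where a single DEHP library was left.

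Cyp2c38 was the member that rose most clearly at 90 days, in the knockout. It had 3.30, 1.82, 3.15 and 4.57 FPKM in knockout CMC livers and 11.0, 8.91, 14.1 and 17.7 FPKM after DEHP. Every DEHP library exceeded every CMC library, as for 8.89% of the genes tested, and the log2 difference was 1.73 (SE 0.28, adjusted p = 4.9e-04). Of these DEHP libraries 3 carried pancreas transcripts and the 4th was low in endothelial markers, while none of the CMC libraries had either feature, and 13 of 15 pancreas markers rose in this comparison. The difference was 2.19 (adjusted p = 0.00214) with the 5 pancreas libraries left out, which leaves 1 DEHP library that is assumed to vary like the other groups, and 1.57 (adjusted p = 0.0038) without the libraries low in endothelial markers. In the wild type Cyp2c38 had 6.36, 6.66, 3.45 and 11.3 FPKM with CMC and 8.15, 8.46, 7.47 and 15.4 FPKM with DEHP, a difference of 0.49 (95% interval -0.09 to 1.07, adjusted p = 0.355). The interaction of genotype and DEHP for Cyp2c38 was 1.24 (SE 0.40, adjusted p = 0.71).

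Cyp2c29 had 500, 377, 373 and 406 FPKM in knockout CMC livers at 90 days and 547, 587, 722 and 762 FPKM after DEHP. The groups did not overlap, and Cyp2c29 rose by 0.66 (SE 0.19, adjusted p = 0.0383). That call was lost without CMC replicate 2, 3 or 4 (adjusted p = 0.0907, 0.105 and 0.0713), without DEHP replicate 3 or 4 (adjusted p = 0.13 and 0.124) and without the 5 pancreas libraries (0.89, adjusted p = 0.126). The wild-type values were 528, 476, 296 and 637 FPKM with CMC and 638, 688, 670 and 568 FPKM with DEHP. They overlapped, and the difference of 0.45 did not pass (95% interval 0.07 to 0.84, adjusted p = 0.165).

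The other members did not pass at 90 days. Cyp2c50 stood between 245 and 446 FPKM and Cyp2c54 between 77.2 and 165 FPKM over the 16 libraries. Their log2 differences lay between -0.07 and 0.23. The 95% intervals of Cyp2c50 were -0.49 to 0.36 in the wild type and -0.35 to 0.50 in the knockout. They did not reach its point estimates at 28 days of -0.90 and -0.74, which have an error of their own. Cyp2c55 stood between 1.00 and 5.33 FPKM with differences of 0.39 and 0.38. Cyp2c39 stood between 0.26 and 2.27 FPKM with differences of 0.33 and 0.49, and it passed in the knockout once the 5 pancreas libraries were left out (1.00, adjusted p = 0.00449), where 1 DEHP library was left, the one low in endothelial markers. For Cyp2c40 all 4 wild-type DEHP libraries, at 10.5, 15.6, 11.3 and 12.4 FPKM, stood above the CMC libraries at 10.4, 8.96, 5.61 and 8.19 FPKM, by a narrow margin, and their difference, 0.55, did not pass (adjusted p = 0.265). Non-overlapping groups of that direction were found for 7.07% of all genes tested. Cyp2c69 ranged from 0.15 to 2.52 FPKM, a level at which its lowest value corresponds to about 2.29 fragments, and no DEHP difference was detectable at this depth.

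The interaction of DEHP and time passed for 9 of the 10 members, Cyp2c69 included, against 9.82% of all genes tested. This interaction, taken as the difference at 90 days minus that at 28 days averaged over the genotypes, was called positive for 8 members and negative for 1, against 4.99% and 4.82% of all genes. For Cyp2c69 it was 5.26, but with vehicle means of 1.34 and 0.85 FPKM at 90 days this gene had no room for a fall of the size seen at 28 days, so the value follows from its level and shows no difference in response. It was 2.61 for Cyp2c40 (SE 0.29, adjusted p = 1.3e-06), whose vehicle means at 90 days were also low at 8.30 and 4.71 FPKM, and 1.69 for Cyp2c37 (SE 0.22, adjusted p = 8.3e-06). Cyp2c38 followed at 1.62, Cyp2c54 at 1.59 (SE 0.29, adjusted p = 5.9e-04), Cyp2c70 at 1.19, Cyp2c50 at 0.83 and Cyp2c39 at 0.77, with adjusted p of at most 0.026. For Cyp2c55 it was -1.21 (SE 0.30, adjusted p = 0.00977), so its rise was larger at 28 days. Cyp2c29 gave -0.15 (95% interval -0.57 to 0.27, adjusted p = 0.754). The Cyp2c55 call was lost without the 5 pancreas libraries (-0.89, adjusted p = 0.153), the Cyp2c50 call without the 3 libraries low in endothelial markers (adjusted p = 0.0506), and the Cyp2c70 call without those 3 (adjusted p = 0.0584) or without 1 of knockout CMC replicate 6 (adjusted p = 0.0508), knockout DEHP replicate 6 (adjusted p = 0.0501) and knockout DEHP replicate 7 (adjusted p = 0.0506) of 28 days. Since the 28-day libraries carry Xist and no Y-chromosome transcripts, the effects of time and of these transcripts on the response cannot be told apart.

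Vehicle levels of several members also differed between the times, which the design tested for no gene. In wild-type CMC livers Cyp2c69 averaged 825 FPKM at 28 days and 1.34 FPKM at 90 days, a ratio of 617, and Cyp2c40 averaged 464 and 8.30 FPKM, a ratio of 55.9. The ratio was 8.08 for Cyp2c39, 4.86 for Cyp2c38, 3.09 for Cyp2c37 and 1.77 for Cyp2c54. In each of these 6 genes all 28-day CMC libraries stood above all 90-day CMC libraries in both genotypes, as they did for 8.4% of the genes tested. Cyp2c29, Cyp2c55 and Cyp2c70 overlapped between the times in vehicle livers, and Cyp2c50 overlapped in the wild type. After DEHP the 28-day means of Cyp2c37, 72.0 and 88.0 FPKM, lay below its 90-day vehicle means of 124 and 111 FPKM, whereas those of Cyp2c40 and Cyp2c69, at 17.1 to 115 FPKM, stood above theirs. Of the close relatives, Cyp2c68 averaged 335 FPKM at 28 days and 95.1 FPKM at 90 days in wild-type CMC livers, a ratio of 3.52, and did not overlap between the times. Cyp2c67 averaged 101 FPKM at 28 days and 164 FPKM at 90 days in the same livers, where all 28-day libraries lay below, and overlapped in the knockout.

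Ordered by group mean, Cyp2c69 and Cyp2c40 fell into 3 tiers that did not overlap, with the 2 CMC groups of 28 days on top, the 2 DEHP groups of 28 days next and the 4 groups of 90 days last. Within the 28-day tiers the genotypes overlapped, and within the 90-day tier wild-type DEHP stood apart for Cyp2c40. Cyp2c37 had its 28-day CMC groups at 383 and 356 FPKM, its 90-day CMC groups at 124 and 111 FPKM and its 4 DEHP groups at 72.0 to 88.0 FPKM, and the last of these overlapped each other. For Cyp2c50 and Cyp2c54 every neighbouring pair of groups in the order overlapped. The same held for Cyp2c55 and Cyp2c70.

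Between the genotypes as labelled, none of the 10 members had a called difference. Knockout against wild type gave 0 members called with CMC at 28 days, with DEHP at 28 days, with CMC at 90 days and with DEHP at 90 days. The background was low as well, at 0.0446%, 0.0178%, 0.00892% and 0.508% of all genes tested. At an unadjusted p below 0.05 the members numbered 0, 0, 2 and 1 in these comparisons. The interaction of genotype and DEHP was called for no member at 28 days, against 0.0178% of genes, or at 90 days, against 0.0%. At an unadjusted p below 0.05 it counted 0 members at 28 days and 1 member at 90 days.

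Cyp2c40 came nearest to a genotype difference. In DEHP livers at 90 days its knockout values were 6.86, 6.26, 2.04 and 8.81 FPKM, against the wild-type values of 10.5 to 15.6 FPKM given above. All knockout libraries lay below all wild-type libraries, as they did for 1.69% of genes tested, and the log2 difference was -1.05 (SE 0.27, adjusted p = 0.0766). Of these knockout libraries 3 carried pancreas transcripts, and the difference was -0.44 (adjusted p = 0.758) without the 5 pancreas libraries, which leaves 1 knockout library, and -0.69 without knockout replicate 3. With CMC at 90 days the knockout had 3.10, 6.09, 4.67 and 4.96 FPKM, the groups overlapped, and the difference was -0.70 (SE 0.27, adjusted p = 0.576). Cyp2c38 in the same CMC comparison gave -0.86 (SE 0.28, adjusted p = 0.49). For the high members the intervals bound the genotype difference in vehicle livers at 28 days, at -0.57 to 0.33 for Cyp2c29, -0.58 to 0.38 for Cyp2c37, -0.53 to 0.45 for Cyp2c50 and -0.81 to 0.71 for Cyp2c70. The interval of Cyp2c69 there was wide, -1.32 to 0.56.

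**Figure D5:**
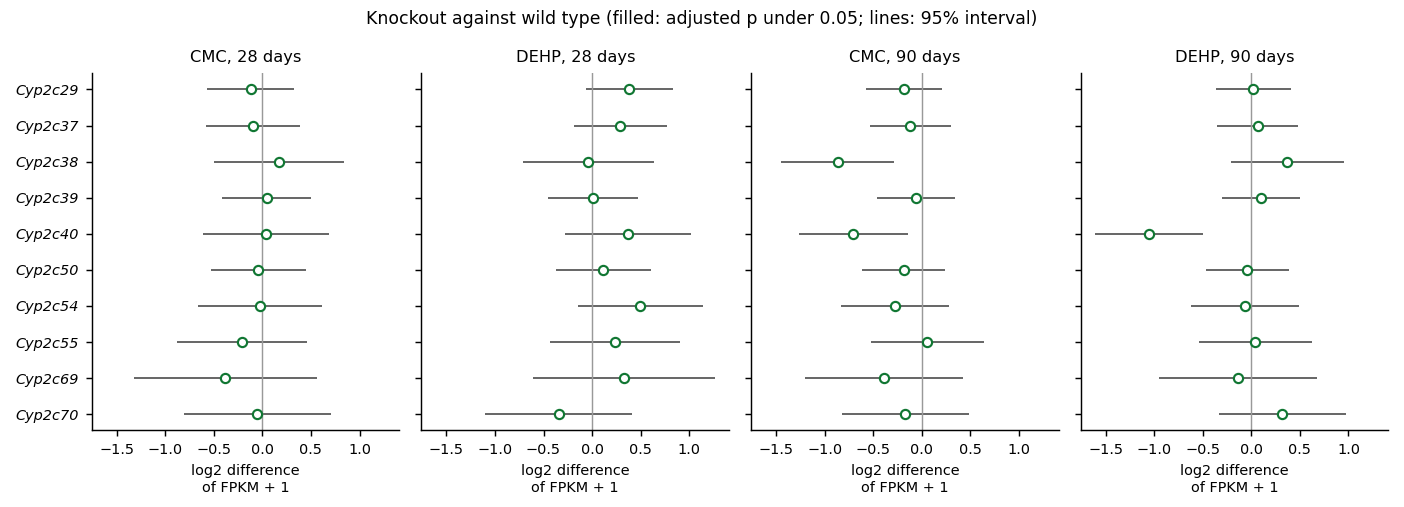
Points give the log2 difference of FPKM + 1 between knockout and wild type for each member, by agent and time, with 95% intervals as lines. All 40 points are open, meaning an adjusted p of 0.05 or more, and Cyp2c40 with DEHP at 90 days stands at -1.05.

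Other genes of the same reactions were followed as lists. Of the 6 other Cyp2c rows 3 passed the filter, and Cyp2c68 and Cyp2c44 fell with DEHP at 28 days in both genotypes. Cyp2c68 went from 335 ± 44.2 to 144 ± 7.54 FPKM (SD, n = 3) in the wild type (-1.20, adjusted p = 9.8e-06), and Cyp2c44, an epoxygenase, from 150 ± 6.16 to 75.0 ± 22.4 FPKM (-1.03, adjusted p = 2.6e-04). Cyp2c67 passed at neither time, and none of the 3 passed at 90 days. Cyp2c65, Cyp2c66 and Cyp2c53-ps did not reach 1 FPKM in any library.

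Of 5 listed partners that feed electrons to P450 enzymes, none was called lower with DEHP. At 28 days 1 rose in the wild type and 2 in the knockout, and at 90 days 2 and 1 rose in that order. Of all genes tested at 28 days, 10.3% and 11.6% were called higher in the wild type and the knockout, and 6.17% and 8.77% lower. At 90 days 6.8% and 5.65% were called in either direction. With only 5 genes, the absence of lower calls does not set the partners apart. Cyb5b, an outer mitochondrial membrane cytochrome b5, rose by 0.45 in the wild type (adjusted p = 0.00962) and by 0.76 in the knockout at 28 days (adjusted p = 3.0e-05). Of 10 genes that release, bind or further convert fatty acids and their epoxides, 6 rose and 2 fell in the wild type at 28 days, and 5 rose and 2 fell in the knockout. Ephx2, the soluble epoxide hydrolase that opens these epoxides, went from 180 ± 22.2 to 598 ± 45.8 FPKM in the wild type (1.73, adjusted p = 3.5e-08) and from 224 ± 46.1 to 705 ± 78.3 FPKM in the knockout (1.66, adjusted p = 4.7e-08). At 90 days it rose by 0.97 (adjusted p = 9.6e-05) and by 0.48 (adjusted p = 0.044). Cyp4f14, a fatty acid omega-hydroxylase, fell at 28 days by 2.56 in the wild type (adjusted p = 2.0e-08) and by 2.24 in the knockout (adjusted p = 9.9e-08).

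Other P450 enzymes of foreign compound metabolism split by direction. Of 27 tested, 3 rose and 9 fell in the wild type at 28 days and 5 rose and 8 fell in the knockout, while at 90 days 1 fell in the wild type and 3 rose and 2 fell in the knockout. Over all genes tested at 28 days, 10.3% rose and 6.17% fell in the wild type, and 11.6% and 8.77% in the knockout. The shares called in either direction at 90 days were 6.8% and 5.65%. Cyp3a44, known as female-biased, went from 42.8 ± 9.69 to 0.547 ± 0.585 FPKM in the wild type at 28 days (-4.86, adjusted p = 3.1e-16). Among 21 genes known as female-biased in mouse liver, a list without Cyp2c genes that shares members with the P450 list, 2 rose and 10 fell at 28 days in each genotype. At 90 days none passed in the wild type, and 2 rose in the knockout.

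Regulators of the family were also measured. Of 19 nuclear receptors and liver transcription factors, 1 rose and 2 fell in the wild type at 28 days, and 1 rose and 4 fell in the knockout. Over all genes tested, 10.3% were called higher and 6.17% lower in the wild type, and 11.6% and 8.77% in the knockout. With so few genes these counts do not set the regulators apart. Hnf4a, the hepatocyte factor whose core site was searched for above, went from 153 ± 12.9 to 101 ± 8.17 FPKM in the wild type (-0.60, adjusted p = 0.0118) and from 176 ± 12.1 to 98.3 ± 5.51 FPKM in the knockout (-0.83, adjusted p = 5.0e-04). At 90 days none passed in the wild type, and in the knockout Nr1i3, which encodes CAR, rose from 21.4 ± 3.54 to 40.8 ± 2.97 FPKM (0.91, adjusted p = 0.00375, n = 4). Of 11 genes of the growth hormone axis 3 fell in the wild type and 4 in the knockout at 28 days and none passed at 90 days. Ghr, the growth hormone receptor, fell at 28 days by 0.83 (adjusted p = 7.6e-06) and by 0.88 (adjusted p = 2.3e-06).

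PPARalpha targets rose at both times, whereas most Cyp2c genes fell at 28 days and few passed at 90 days. Of 24 tested, 22 rose in each genotype at 28 days, and 20 in the wild type and 15 in the knockout at 90 days, with none lower. Shares over all genes at 28 days were 10.3% higher and 6.17% lower in the wild type, and 11.6% and 8.77% in the knockout. For 90 days the shares in either direction were 6.8% and 5.65%. Of 13 bile acid synthesis genes, 3 rose and 4 fell in the wild type at 28 days and 4 rose and 4 fell in the knockout, and at 90 days 4 rose and 1 fell in the wild type and 1 rose and 1 fell in the knockout. Cyp39a1, an oxysterol hydroxylase, fell in all 4 comparisons, by 1.37, 1.84, 1.46 and 1.30 in the order wild type and knockout at 28 days and wild type and knockout at 90 days (adjusted p = 8.9e-04, 2.2e-05, 5.0e-04 and 0.00183).

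Some markers of hepatocytes and of their position in the lobule also fell at 28 days. The summed FPKM of 10 hepatocyte markers was 66406 to 79848 in wild-type CMC and 52377 to 54491 in wild-type DEHP libraries, and 73076 to 73935 and 49144 to 49965 in the knockout. Of these 10 genes 4 fell in the wild type and 6 in the knockout, and none was at 0. Alb is the largest part of the sum, with medians of 42419 FPKM with CMC and 27947 with DEHP in the wild type and 38821 and 24232 in the knockout. Apoa2, the next most abundant, went the other way, from 12370 to 14086 FPKM and from 14008 to 14501 FPKM. Of 17 pericentral genes 5 fell in each genotype and 1 rose in the knockout, and of 14 periportal genes 9 fell in the wild type and 10 in the knockout. The share of all genes called lower at 28 days was 6.17% in the wild type and 8.77% in the knockout. At 90 days the hepatocyte sums overlapped, at 50139 to 62398 with CMC and 46311 to 53150 with DEHP in the wild type and 44953 to 58292 and 48987 to 57002 in the knockout. The part of these shifts in the Cyp2c differences was not tested. Of 13 stellate cell and matrix markers, 4 fell in the wild type and 3 in the knockout at 28 days, none passed in the wild type at 90 days, and 1 fell in the knockout. No Kupffer cell, sinusoidal endothelial, bile duct or erythroid marker passed in any of the 4 DEHP comparisons, out of 13, 15, 5 and 5 tested.

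Within groups some members varied together. After subtracting each group's mean, Cyp2c50 and Cyp2c54 correlated at r = 0.92, Cyp2c29 and Cyp2c55 at 0.72, Cyp2c40 and Cyp2c69 at 0.62 and Cyp2c37 and Cyp2c38 at 0.60 over the 28 libraries. Cyp2c50 and Cyp2c54, like Cyp2c40 and Cyp2c69, share stretches of sequence, and all values of a library share its depth. Cyp2c39 and Cyp2c70 gave the lowest value, -0.56.

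Outside the family, the genes whose log2(FPKM + 1) followed a member most closely over the 28 libraries differed by member, and their r includes the differences between times and agents. For Cyp2c69 they were Slc22a26 (r = 0.98), A1bg (0.98) and Sult3a1 (0.97), all listed as female-biased. For Cyp2c37 they were Ces1b (0.96), Slco1a4 (0.95) and Ces1c (0.94), of which the Ces1 genes encode carboxylesterases and Slco1a4 an organic anion transporter. For Cyp2c29 they were Sh3bgrl2 (0.85), Ugt2b34 (0.85), a glucuronosyltransferase, and Ces1f (0.82). For Cyp2c55 they were Gm3776 (0.91), Me1 (0.87), the cytosolic malic enzyme, and Atp5a1 (0.87), an ATP synthase subunit. For Cyp2c70 they were Ptma (0.92), AI182371 (0.92) and Ppp4r4 (0.90).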

How the data were processed

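Total RNA of liver was extracted with Trizol and made into Illumina TruSeq libraries, per the labels' protocols. The authors deposited 1 table of FPKM values per gene with a column for each of 28 libraries, and Cuffdiff and the builds mm10 and GRCm38 are named in the submitters' processing notes. The aligner, its settings and the treatment of fragments that match several genes are not given in the sources used here. Groups came from the genotype, agent and time labels, and replicate numbers from the column names. No pair of libraries was identical.

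The values were taken to log2(FPKM + 1) and filtered at 1 FPKM in at least 3 libraries. All 28 libraries entered 1 limma fit (version 3.58.1, R 4.3.3) with 8 group means and a mean-variance trend (20 residual and 4.17 prior degrees of freedom). Its p-values were adjusted by Benjamini-Hochberg over 11213 genes, with a threshold of 0.05, and the fit was tested on simulated data. Intervals are 95% intervals of that fit. Promoters and transcripts came from RefSeq (GRCm38.p6) and GENCODE M21.

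Same-numbered libraries deviated together from their group means in every pair for DEHP against CMC in the wild type at 90 days (correlations 0.262, 0.252, 0.22 and 0.665 over genes). The labels do not say that a number marks a shared animal or batch. The main fit therefore used no pairs, and its p-values are unpaired in every comparison, this one included. The replicate block was fitted as an alternative only. In this wild-type comparison only the replicate 4 libraries, which share pancreas transcripts, matched their own number best. For knockout against wild type with CMC at 90 days, replicates 1, 3 and 4 matched their own number best. The correlation of replicate 2 there was -0.113. The alternatives were a pseudocount of 0.1, other filters and scalings, library weights, a replicate block, smaller fits and libraries left out.

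The members and the gene lists were chosen with earlier results of these data known. All 10 members are named. Of each list the text names at most the 3 called genes with the smallest adjusted p per comparison and, of marker lists, the 2 most abundant, and the 3 genes outside the family that correlate best with Cyp2c29, Cyp2c37, Cyp2c55, Cyp2c69 and Cyp2c70.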

Additional observations from a re-analysis of the deposited data

Results flagged for a closer look

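Of 40 group and gene combinations at 90 days with 4 libraries each, 3 held a library far from the others, and chance alone flags about 1 in 20. Cyp2c38 stood at 15.36 FPKM in wild-type DEHP replicate 4, against 7.47, 8.15 and 8.46 FPKM in the others, and that library carried pancreas transcripts. Cyp2c39 stood at 0.76 FPKM in knockout CMC replicate 1, against 0.40, 0.41 and 0.44 FPKM. Cyp2c54 stood at 157.83 FPKM in knockout DEHP replicate 4, the library low in endothelial markers, against 88.9, 91.6 and 93.2 FPKM in the 3 with pancreas transcripts.

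The interaction of DEHP and time passed for 9 members in the limma fit. For Cyp2c69 it was 5.26, a value that follows from its level, since at 0.15 to 2.52 FPKM in the 16 libraries of 90 days a fall like that at 28 days could not have been seen. The log2 differences at 90 days minus those at 28 days were 2.61 for Cyp2c40, 1.69 for Cyp2c37, 1.62 for Cyp2c38, 1.59 for Cyp2c54, 1.19 for Cyp2c70, 0.83 for Cyp2c50, 0.77 for Cyp2c39 and -1.21 for Cyp2c55. The time points also differ in Xist and Y-chromosome transcripts, and these cannot be told apart.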

How the results depend on the processing

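Of the values of called members, 348 of 366 with 1 library left out and 273 of 296 under other settings kept their direction and stayed past the threshold, and the others kept their direction and lost the call. The first count includes the time interactions of 9 members, refitted without each of 28 libraries, where 3 calls were lost. The calls at 90 days were less stable. There Cyp2c70 in the wild type and Cyp2c29 in the knockout each lost the call in 5 of 8 such refits, and Cyp2c38 in the knockout in none. At 28 days 1 call was lost in the wild type and 4 in the knockout. The cause of the losses was not tested. FPKM without read totals limits what can be said of Cyp2c39, Cyp2c55 and, at 90 days, Cyp2c69.

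Counts of genes called for DEHP at 28 days in the wild type moved from 1850 to 926 in a fit of the groups compared, 3184 with library weights and 359 with a replicate block in that fit. In the wild type at 90 days 762 became 304, 298 with the block in that fit, 484 without the pancreas libraries and 379 to 893 with 1 library left out, and the members called went from 1 to 0 in a fit of the groups compared, in a fit of the same time point and with no filter, to 2 with library weights, quantile normalization or the replicate block, and to 0 or 1 with 1 library left out. In the knockout at 90 days 633 became 361, 164 with the block, 272 without the pancreas libraries and 253 to 540 with 1 library left out. The members called there went from 2 to 1 in a fit of the same time point, with no filter, with quantile or upper quartile scaling, with the block in a fit of the groups compared and without the libraries low in endothelial markers, and to 1 or 2 with 1 library left out.

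For knockout against wild type the counts of genes called moved as follows, with 0 members called under each setting. With CMC at 28 days 5 became 2 (5 FPKM filter and pseudocount of 0.1), 1 (groups compared), 3 (same time point), 0 (block in a fit of the groups compared) and 4 to 8 with 1 library left out. With DEHP at 28 days 2 became 1 (5 FPKM filter, same time point, replicate block, without the libraries low in endothelial markers), 0 (groups compared, with or without the block), 218 (library weights) and 1 to 3. With CMC at 90 days 1 became 2 (groups compared, without the pancreas libraries) and 1 to 5. With DEHP at 90 days 57 became 10 (groups compared, with or without the block), 36 (same time point), 120 (library weights), 31 (no filter, replicate block), 20 (without the libraries low in endothelial markers) and 16 to 109, the highest without wild-type DEHP replicate 4. The genotype by DEHP interaction at 28 days went from 2 to 0 (5 FPKM filter, same time point, pseudocount of 0.1), 1 (replicate block, without the pancreas libraries) and 1 to 3, and at 90 days from 0 (653 genes at an unadjusted p below 0.05) to 30 without the pancreas libraries and 0 to 2. The time interaction went from 1101 to 1807 with library weights.

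Signs turned only for values that were not called. At 90 days in the wild type these were Cyp2c50 (-0.07 became 0.11 without the pancreas libraries, and -0.15 to 0.073 with 1 library left out), Cyp2c54 (0.02 became -0.092 with quantile and -0.015 with upper quartile scaling, and -0.11 to 0.22) and Cyp2c69 (-0.02, with -0.22 to 0.29). In the knockout they were Cyp2c37 (-0.42 became 0.19 without the pancreas libraries), Cyp2c40 (0.20 became -0.0055 without the libraries low in endothelial markers, and -0.0055 to 0.56), Cyp2c50 (0.08 became -0.049 with quantile scaling and -0.046 without those libraries, and -0.046 to 0.15) and Cyp2c69 (0.23 became -0.036 without them, and -0.036 to 0.50). The time interaction of Cyp2c29 went from -0.15 to 0.070 without the pancreas libraries. Outside the wild type at 90 days, the block in the fit of all groups gave Cyp2c37 a call at 90 days in knockout livers (-0.42, adjusted p = 0.0409). In a fit of the groups compared it lost Cyp2c29 there (adjusted p = 0.0974), and at 28 days Cyp2c55 (adjusted p = 0.136) in the wild type and Cyp2c54 (adjusted p = 0.0583) in the knockout. Cyp2c50 did not pass at 28 days in a fit of the groups compared, either without the block (adjusted p = 0.0542 in the wild type and 0.13 in the knockout) or with it (adjusted p = 0.108 and 0.132). These blocked fits of the groups compared were chosen after seeing the data.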
